A study of Mus musculus with 3 samples.

Results

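Genes of the muscle calcium release machinery were followed in cultured mouse myoblasts, 10 of the 35562 genes to which the deposited transcripts could be assigned. They were chosen by name and role, with no threshold on their values: the release channels Ryr1 and Ryr3, the pumps Atp2a1 and Atp2a2, the store proteins Casq1 and Casq2, the channel subunits Cacna1s and Cacng1, the adaptor Stac3 and the pump inhibitor Sln. RNA-seq was performed on 3 myoblast lines, numbered 66, 67 and 72, which carry the Dmd-mdx and Pax7-nGFP alleles and were grown from satellite cells of mouse chimeras. The chimeras were made with induced pluripotent stem cells (iPSCs) in which CRISPR/Cas9 had been used to correct the mdx mutation of the dystrophin gene, and the myoblasts were sorted for the Pax7-nGFP reporter. The iPSCs of the study had 1 edited clone verified at the dystrophin locus, and the labels do not give the chimera, age or tamoxifen treatment behind each line. All 3 lines carry the edit and the reporter, so they form 1 condition (n = 3), and no unedited or wild-type myoblasts were analysed here.

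Excitation-contraction coupling is the step by which an action potential makes a muscle fibre contract. A voltage-sensing calcium channel in the transverse tubule, built around the Cacna1s subunit and attached to Stac3, opens the ryanodine receptor of the sarcoplasmic reticulum, and calcium leaves the store. Calcium is held in the store by calsequestrins and pumped back by the SERCA ATPases, which sarcolipin inhibits. Myoblasts are proliferating precursors that do not contract, and most of this machinery is known for its activity in differentiated myotubes and fibres.

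For 4 of the genes the transcripts of the files include alternative forms of the coding sequence, and the stretches in which these forms differ are shown because the shares given further on rest on them. All are written 5′ to 3′ on the gene's strand, from the GENCODE M21 transcripts (GRCm38). Exon numbers are counted along the transcript that contains the exon. In Cacna1s, the alternative exon is exon 29 of 44, 57 bases of coding sequence at chr1:136104570-136104626 on the plus strand. Skipping of this exon is known from embryonic muscle, where it gives a channel that passes more calcium. The exon is in capitals between the neighbouring 30 bases on each side, and the second line is the junction without it.
Cacna1s with exon 29: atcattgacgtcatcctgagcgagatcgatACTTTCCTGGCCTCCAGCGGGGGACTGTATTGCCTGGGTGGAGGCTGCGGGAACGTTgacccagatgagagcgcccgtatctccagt
Cacna1s without exon 29: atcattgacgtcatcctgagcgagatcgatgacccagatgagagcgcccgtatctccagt

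In Ryr1, the alternative exon is exon 70 of 106, 15 bases of coding sequence at chr7:29056234-29056248 on the minus strand. Its omission is known from juvenile and myotonic muscle. The exon is in capitals.
Ryr1 with exon 70: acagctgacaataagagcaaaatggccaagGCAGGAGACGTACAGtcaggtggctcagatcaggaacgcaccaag

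Both pumps vary at the end of the reading frame. In Atp2a2, the intron after the shared sequence is either spliced, which gives the short tail of SERCA2a (998 codons before the stop), the form of heart and slow muscle, or read through, which gives the long tail of SERCA2b (1044 codons before the stop), the form found in most tissues. The exon of the short form spans chr5:122457303-122457426 and that of the long form chr5:122456340-122457426, both on the minus strand. In Atp2a1, inclusion of exon 22 of 23, 42 bases at chr7:126446545-126446586 on the minus strand, gives the adult SERCA1a tail, and its omission the longer tail of neonatal SERCA1b. In the lines below, capitals mark the coding bases and stop codon that follow the shared sequence.
Atp2a2 short tail: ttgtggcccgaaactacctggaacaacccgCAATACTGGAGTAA
Atp2a2 long tail: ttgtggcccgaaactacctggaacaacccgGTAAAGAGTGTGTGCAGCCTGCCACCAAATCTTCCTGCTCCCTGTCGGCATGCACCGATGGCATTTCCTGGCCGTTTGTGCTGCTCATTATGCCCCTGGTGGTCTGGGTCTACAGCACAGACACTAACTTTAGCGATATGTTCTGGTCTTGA
Atp2a1 with exon 22: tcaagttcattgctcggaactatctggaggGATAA
Atp2a1 without exon 22: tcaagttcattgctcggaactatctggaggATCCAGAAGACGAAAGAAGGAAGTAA

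Library depth ran from 66972426 estimated counts (line 67) to 73274315 (line 66). Estimated counts are reads divided among the transcripts they fit, and TPM (transcripts per 1000000) divides them by transcript length and scales each library to 1000000, so that TPM can be compared between genes. No 2 libraries agreed within sampling noise (chi-square per degree of freedom between 36.2 and 59.7), which does not tell separate animals from repeat libraries of 1 sample. The spread between lines is the only error available, and nothing in the labels says which lines shared an animal or culture. The myoblast identity of the lines was checked on a marker list: all 6 myoblast markers were measured above 10 TPM, with Pax7 at 136, 143 and 154 TPM and Myod1 at 791, 702 and 579 TPM in lines 66, 67 and 72. The heart markers Nppa, Nppb, Myl7 and Nkx2-5, the neuron markers Rbfox3 and Elavl4 and the fibroblast markers Lum and Dpt had at most 3 counts in every line. These were 4 of 7 heart, 2 of 5 neuron and 2 of 4 fibroblast markers, and others of these lists had counts, such as Pdgfra (0.454, 0.378 and 0.387 TPM) and Syp (0.327, 0.254 and 0.412 TPM). A heart factor, Gata4, was at 22.1, 14.7 and 8.44 TPM, highest in line 66, and its relation to the genes studied was not tested.

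All 10 genes were detected in every line, over a wide span of levels, from 199 ± 15.9 TPM for Atp2a2 to 0.214 ± 0.101 TPM for Ryr3 (mean ± SD, n = 3). The mean level passed 10 TPM, the minimum used for comparisons between lines, for 7 genes. The other 3 were Cacna1s, Sln and Ryr3. The order of the 10 genes by level was the same in all 3 lines.

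**Figure D1:**
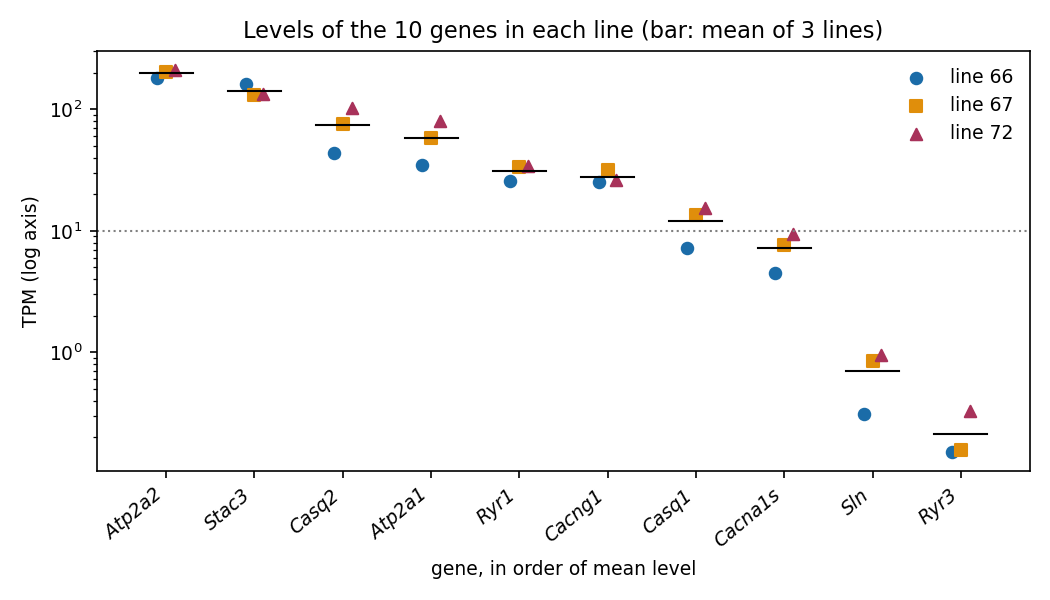
TPM on a log axis of the 10 genes in lines 66, 67 and 72 (points) with the mean of the 3 lines (bar), and a dotted line at 10 TPM. Atp2a2 and Stac3 were above 100 TPM in every line, and Sln and Ryr3 below 1 TPM.

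The pumps that refill the store were both expressed. Atp2a2, the SERCA2 pump gene (chr5:122453513-122502225), was at 181, 204 and 211 TPM in lines 66, 67 and 72, and 97.0% of the detected genes had a lower mean level. Atp2a1, the SERCA1 pump of fast fibres (chr7:126445858-126463108), was at 34.8, 58.2 and 79.9 TPM in the same lines, a mean of 57.6 ± 22.6 TPM. Atp2a2 exceeded Atp2a1 in each line, without overlap of the line values. The TPM ratio of the 2 pumps was 5.20, 3.51 and 2.64 in lines 66, 67 and 72. On the log2(TPM + 1) scale Atp2a2 was higher by 1.84 ± 0.48 (SD), with the same sign in 3 of 3 lines. With only transcripts of at least 50% of the longest summed, this difference was 2.56, since a short model holds much of the Atp2a1 TPM. An exact two-sided sign-flip test over the lines gave p = 0.25 (0.25 after Benjamini-Hochberg adjustment over 3 pairs of paralogs), the smallest p that 3 lines allow. With this test, no comparison over 3 lines can pass a threshold of 0.05.

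Sln encodes sarcolipin, a small membrane protein that slows the SERCA pumps. It was at 0.312, 0.855 and 0.951 TPM in lines 66, 67 and 72, which rested on 18, 45 and 52 counts. The exact 95% Poisson intervals of these counts were 10.7 to 28.4, 32.8 to 60.2 and 38.8 to 68.2 counts, covering counting error only. Line 66 was thus below both others, but each line is 1 library and the difference has no replicate check. Sln was below Atp2a1 and Atp2a2 in every line (chr9:53850164-53854560).

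The other small regulators of the pumps differed widely in level. Phospholamban, Pln, known for its role in heart and slow muscle, had 9, 3 and 10 counts in lines 66, 67 and 72. Strit1, which encodes the pump activator DWORF, had no counts in any line, where a count of 0 allows up to 3. Mrln, the gene of the inhibitor myoregulin, was at 4.61, 6.36 and 8.26 TPM, lowest in line 66 as Sln was. This order of Mrln rested on 43, 63 and 73 counts and has no replicate check. The gene 1810037I17Rik was at 41.4, 39.2 and 45.0 TPM and was the only one of these 5 list genes above a mean of 10 TPM. The third pump gene, Atp2a3, was at 0.533, 0.946 and 0.670 TPM, below Atp2a1 and Atp2a2 in every line.

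Both calsequestrins, the calcium-binding proteins of the store, were detected, and the cardiac-type gene Casq2 was the more abundant. Casq2 (chr3:102086415-102146514) was at 43.4, 76.3 and 103 TPM in lines 66, 67 and 72. Casq1, the skeletal muscle form (chr1:172209894-172219868), was at 7.22, 13.5 and 15.5 TPM. The TPM ratio of Casq2 to Casq1 was 6.01, 5.63 and 6.62 in lines 66, 67 and 72. It thus stayed within a narrow span while both genes differed between lines. The log2(TPM + 1) difference was 2.50 ± 0.13 (SD, 3 of 3 lines, exact sign-flip p = 0.25, the smallest possible, and 0.25 adjusted). Of the whole-gene TPM of Casq2, however, between 47.8% and 56.1% came from transcripts under 50% of the length of the longest. These short transcripts held between 12.3% and 16.1% of the counts of Casq2. With only longer transcripts summed, Casq2 was at 22.7, 33.5 and 48.1 TPM, still above Casq1 in each line, and the log2 difference was 1.46 in place of 2.50.

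The ryanodine receptor of skeletal muscle, Ryr1 (chr7:29003344-29125179), was at 25.9, 33.8 and 34.1 TPM in lines 66, 67 and 72, from 13230, 16636 and 17369 counts. Ryr3 (chr2:112631355-113217096), a receptor known from immature muscle and brain, was at 0.152, 0.159 and 0.330 TPM from 20, 41 and 44 counts. The exact 95% Poisson intervals for Ryr3 were 12.2 to 30.9, 29.4 to 55.6 and 32.0 to 59.1 counts. Ryr1 therefore exceeded Ryr3 in all 3 lines, by 4.72 ± 0.18 (SD) on the log2(TPM + 1) scale (exact sign-flip p = 0.25, the smallest possible, and 0.25 adjusted). The pseudocount of 1 TPM is above the level of Ryr3, so this log2 difference understates the TPM ratio, which was 170.3, 213 and 103.

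Most of the Ryr3 TPM came from short transcript models without an open reading frame, whereas protein-coding transcripts held between 53.9% and 85.4% of its counts. Between 66.8% and 90.3% of Ryr3 TPM lay on transcripts under 50% of the length of the longest, and its protein-coding transcripts summed to 0.0148, 0.0528 and 0.0482 TPM in lines 66, 67 and 72. Ryr3 overlaps the protein-coding gene Aven on the opposite strand, which was at 26.3, 31.3 and 28.9 TPM. The library kit was strand-specific, but the strand setting of the counting is not given in the sources used here, so the origin of the few Ryr3 counts is uncertain. The heart receptor Ryr2 had 12, 5 and 4 counts to the nearest whole count, highest in line 66.

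The voltage sensor genes were present at lower levels than their adaptor. Cacna1s (chr1:136052750-136119822), the pore-forming subunit of the skeletal muscle calcium channel, was at 4.51, 7.64 and 9.40 TPM in lines 66, 67 and 72. Cacng1 (chr11:107703218-107716522), its gamma subunit, was at 25.0, 31.7 and 26.2 TPM, above Cacna1s in every line. Stac3 (chr10:127501686-127508823), the adaptor that couples the channel to the ryanodine receptor, was at 159.9, 132 and 134 TPM. Stac3 was the only one of the 10 genes with its highest value in line 66. Cacng1 was the only one highest in line 67. About as much of the Stac3 TPM came from short transcripts (between 48.1% and 50.3%) as from long ones, and transcripts of at least 50% of the longest gave 79.4, 67.9 and 69.6 TPM.

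Of the relatives of these genes, Stac2 was expressed and the others were low. Stac2 was at 43.4, 30.3 and 28.3 TPM, highest in line 66 as Stac3 was. Stac2 lies on chromosome 11, where the median gene in line 66 was 0.27 in log2 above the mean of the other lines. Stac had 6, 102 and 14 counts, and the difference of line 67 from the others has no replicate check. Cacng6 was at 4.19, 5.38 and 5.60 TPM, below Cacng1 in every line. The heart and brain channel genes Cacna1c and Cacna1d stayed below 1 TPM, with Cacna1c at 0.207, 0.179 and 0.170 TPM and Cacna1d at 0.0242, 0.0568 and 0.0867 TPM.

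In the order of the levels, neighbouring genes were separated when no line value of one reached those of the other. Atp2a2, Stac3 and the pair of Casq2 and Atp2a1 were separated in this way, as were the pair of Ryr1 and Cacng1, the pair of Casq1 and Cacna1s, and the pair of Sln and Ryr3. Within each of these 4 pairs the line ranges overlapped, while within each library the order was the same in 3 of 3 lines. The order within the pairs also depended on which transcripts were summed. With protein-coding transcripts alone, Cacng1 at 27.6 ± 3.56 TPM came before Ryr1 at 18.9 ± 3.37 TPM. Atp2a1 at 57.6 ± 22.6 TPM then came before Casq2 at 34.7 ± 12.7 TPM. With these sums Casq2 in line 66 was at 22.7 TPM, below Cacng1 at 25.0 TPM in that line. The pair of Casq2 and Atp2a1 was then no longer separated from that of Ryr1 and Cacng1.

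**Figure D2:**
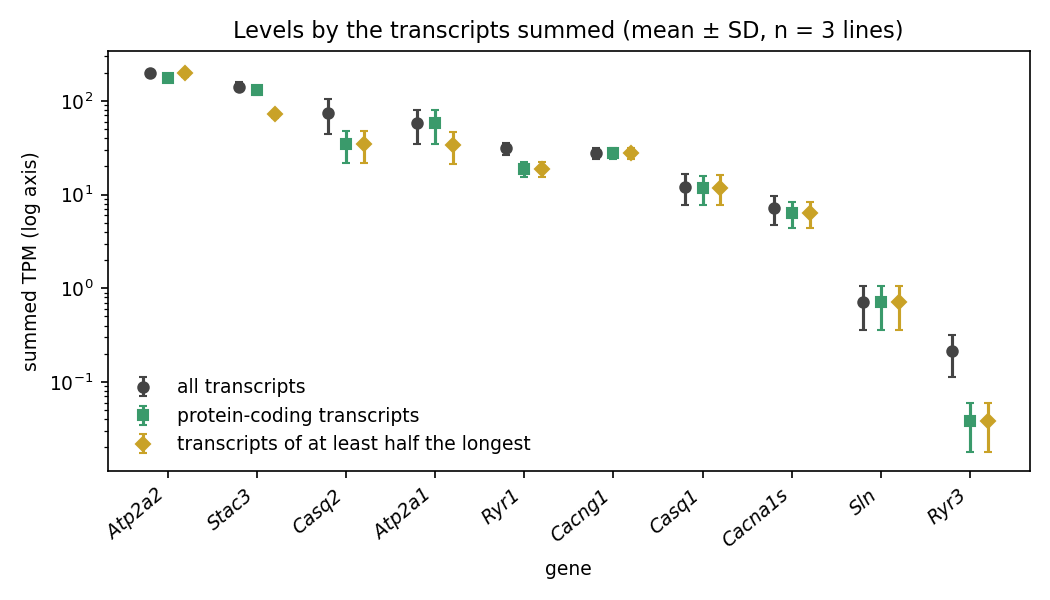
Mean TPM ± SD (n = 3 lines, log axis) of each gene, summed over all its transcripts, its protein-coding transcripts, or transcripts of at least 50% of the length of the longest. Ryr1 fell from 31.3 TPM over all transcripts to 18.9 TPM over protein-coding ones, below Cacng1 at 27.6 TPM, and Ryr3 fell from 0.214 to 0.0386 TPM.

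The level of Ryr1 also depended on short transcript models. Its 5 retained-intron models, all under 50% of the length of the longest, carried between 38.0% and 42.1% of its TPM but between 3.53% and 4.08% of its counts. The 3 protein-coding transcripts held the rest and summed to 15.0, 20.6 and 21.1 TPM in lines 66, 67 and 72. Line 66 was lowest by either sum. In Atp2a2, by contrast, transcripts under 50% of the longest carried at most 1.29% of TPM.

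Among the genes above 10 TPM, the lines differed most in the store proteins and the fast pump. By whole-gene TPM, line 66 had the lowest and line 72 the highest value in 8 of the 10 genes, the exceptions being Stac3 and Cacng1. Among the 7 genes above 10 TPM this held for 5, against 29.4% of the 8428 genes above that level. With protein-coding transcripts alone, Ryr3 was highest in line 67, at 0.0528 TPM against 0.0482 TPM in line 72. Casq2, Atp2a1 and Casq1 were over 2-fold higher in line 72 than in line 66 on the log2(TPM + 1) scale. Their ranges between the highest and the lowest line were 1.23, 1.18 and 1.01 in log2, or 2.34-, 2.26- and 2.01-fold. These 3 of 7 genes compare with 2.17% of all 8428 genes in which any 2 lines were over 2-fold apart, and with 0.593% in which line 72 was over 2-fold above line 66. The lines have no replicates of their own, so no test of these differences exists, and the 10 genes were not drawn at random. Leaving out line 66 or line 72 left 0 of 7 genes over 2-fold apart, and leaving out line 67 left 3. The latter was fixed in advance, since line 67 held the middle value in Casq2, Atp2a1 and Casq1. Without line 66, the log2 range was 0.43 for Casq2, 0.45 for Atp2a1, 0.19 for Casq1 and 0.01 for Ryr1.

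Casq1 lay at the edge of this count. It fell below 2-fold when CPM (counts scaled to the library total), other scalings or other transcript sums were used, and in those settings Atp2a1 and Casq2 were the 2 genes over 2-fold apart. The other 4 genes above 10 TPM lay near the bulk of genes. Their log2 ranges were 0.38 for Ryr1, 0.33 for Cacng1, 0.27 for Stac3 and 0.22 for Atp2a2, and the median range over the 8428 genes was 0.23. A smaller range was found in 76.9% of these genes for Ryr1 and in 47.5% for Atp2a2, but in 98.6% for Casq2. Cacna1s, below the level filter, had a log2 range of 0.92.

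**Figure D3:**
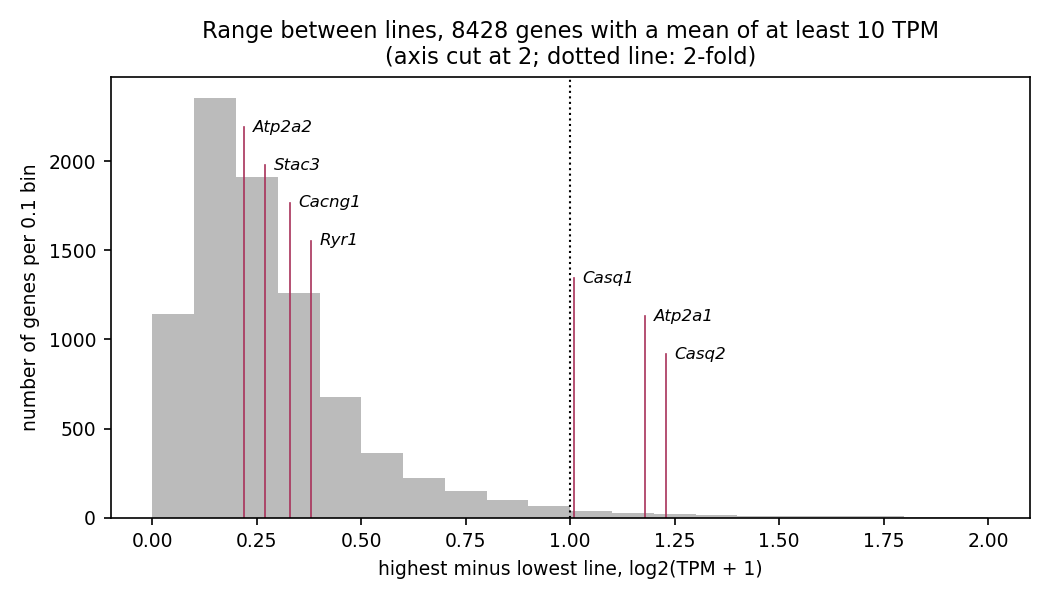
Number of genes in each 0.1 bin of the range between the highest and the lowest line, log2(TPM + 1), for the 8428 genes whose mean reached 10 TPM, with the 7 measured genes above that level as vertical lines. Atp2a2, Stac3, Cacng1 and Ryr1 lay between 0.22 and 0.38, and Casq1, Atp2a1 and Casq2 at 1.01, 1.18 and 1.23, beyond the dotted line of 2-fold.

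The 7 genes above 10 TPM fell in the same order of groups by the biological coefficient of variation, which measures the spread of counts between lines apart from counting noise. It was 0.098 for Atp2a2, 0.116 for Stac3, 0.145 for Ryr1 and 0.159 for Cacng1. It was 0.257 for Casq2, 0.260 for Atp2a1 and 0.292 for Casq1, beside a value common to all 16691 genes of 0.222. By this measure the latter 3 genes were less far out, with smaller values in 71.0%, 72.3% and 81.4% of these genes, which include genes below 10 TPM. Sln, at few counts, had the highest value of the 10 genes, 0.430.

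Markers of muscle differentiation moved with these differences between lines. All 6 differentiation markers of the marker list (Myog, Mymk, Mymx, Ckm, Acta1 and Myh3) were lowest in line 66 and highest in line 72. This order was seen in 29.4% of the 8428 genes above 10 TPM. Their summed level was 806, 1101 and 1393 TPM in lines 66, 67 and 72. Myog, the transcription factor that begins terminal differentiation, was at 168, 222 and 310.4 TPM, and Myh3, embryonic myosin, at 204, 262 and 339 TPM. Of the 5 markers above 10 TPM, Mymx, which encodes a fusion protein, was over 2-fold apart, at 11.5, 18.3 and 27.4 TPM. This 1 of 5 stands beside 2.17% of all 8428 genes, a count with no test. The summed myoblast markers were at 1977, 1903 and 1809.5 TPM, and this order followed Myod1, whereas Pax7 was lowest in line 66 and highest in line 72. Of the 6 myoblast markers, 1 was highest in line 66 and lowest in line 72. In bulk RNA, a larger share of differentiating cells and more RNA per cell cannot be told apart, and the part of differentiation in the differences of Casq1, Casq2 and Atp2a1 was not tested.

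**Figure D4:**
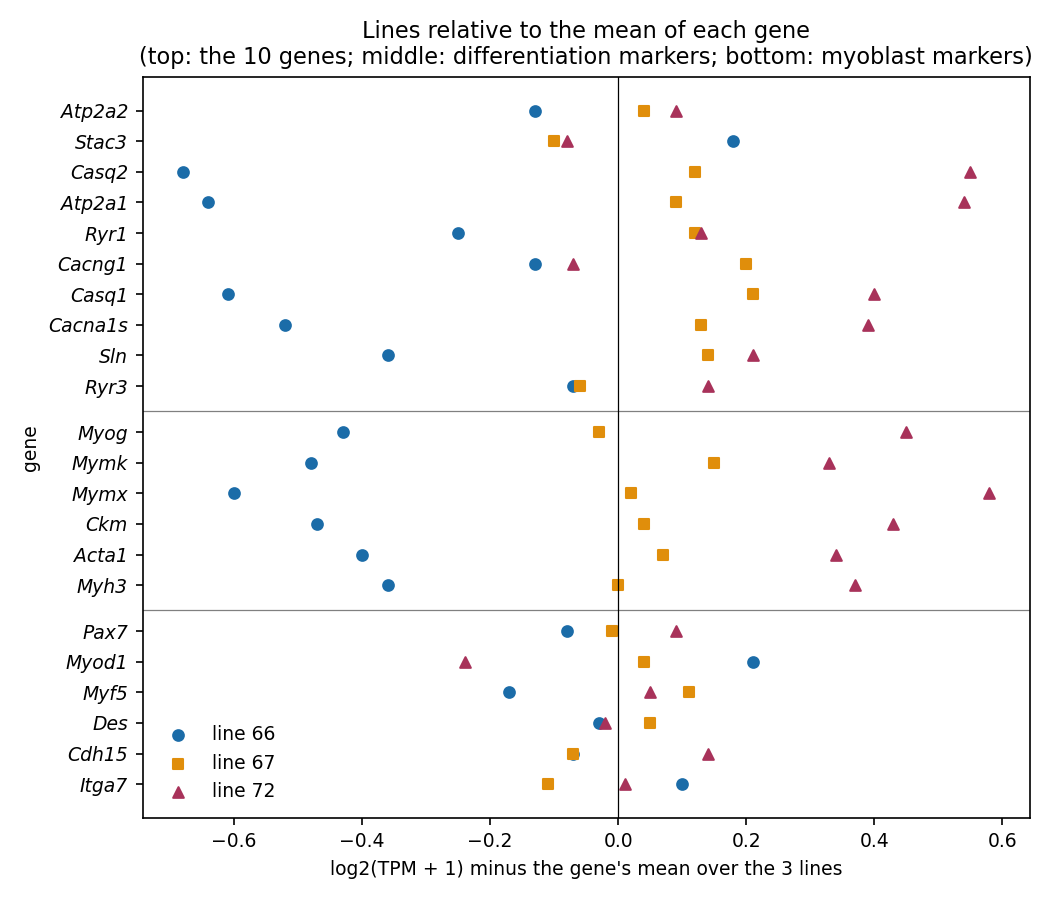
Difference of each line's log2(TPM + 1) from the gene's own mean over the 3 lines, for the 10 genes (top), 6 differentiation markers (middle) and 6 myoblast markers (bottom). Line 66 (circles) was lowest and line 72 (triangles) highest in 8 of the 10 genes and in 6 of 6 differentiation markers. This order was seen in 29.4% of the 8428 genes above 10 TPM. Stac3 was highest in line 66.

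The 2 exceptions lie on chromosomes on which many genes differed in line 66. On chromosome 10, which holds Stac3, the median gene in line 66 was 0.22 in log2 above the mean of the other lines, and Stac3 was 0.26 above it. On chromosome 11, which holds Cacng1, the median gene of line 66 was 0.27 above the other lines, whereas Cacng1 was 0.19 below them in log2 (−0.19). Relative to the median of its chromosome in each line, the log2 range of Stac3 was 0.06 in place of 0.27, and that of Cacng1 was 0.64 in place of 0.33. The ranges of Atp2a1 and Casq2 were 1.15 and 1.11 on this scale, and that of Casq1 was 0.87, under 2-fold. On the same scale the order of the lines changed in 2 further genes with small ranges of 0.14. Ryr3 was lowest in line 67 (−0.07), and Atp2a2 was highest in line 67 (0.05 against 0.04 in line 72). Whether a change in chromosome copies contributed to the values of Stac3 and Cacng1 was not tested.

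The median deviation of the 7 genes above 10 TPM from the gene mean lay close to the profile of many other genes. It was −0.25, 0.12 and 0.13 in log2 in lines 66, 67 and 72, which is the profile of Ryr1, while Casq1, Casq2 and Atp2a1 lay further out and Stac3 the other way. The genes nearest to it were Zfp131, Rxra, 8030462N17Rik, Atp5f1 and Pdpk1, each within 0.006 in log2 in every line. Of the 8421 other genes above 10 TPM, 762 lay within 0.1 of it in every line.

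The splice forms of Atp2a2, Cacna1s and Ryr1 could be followed in each line. For Atp2a2, the short tail of SERCA2a was at 44.7, 58.8 and 70.6 TPM in lines 66, 67 and 72, and the long-tail transcripts, 1 of them annotated for nonsense-mediated decay, at 134, 143 and 139 TPM. The short tail therefore made up 25.0%, 29.2% and 33.7%, a mean of 29.3% ± 4.36 (SD, n = 3). The long tail was the larger form in every line and differed little between lines, while the short tail was lowest in line 66. By estimated counts the shares were 21.4%, 25.1% and 29.3%.

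For Cacna1s, the transcripts with exon 29 were at 0.824, 1.65 and 2.42 TPM and those without it at 3.51, 5.07 and 5.83 TPM. The exon was included in 19.0%, 24.5% and 29.3% of the coding TPM in lines 66, 67 and 72 (24.3% ± 5.16, SD, n = 3). The form that skips the exon thus prevailed in every line. For Ryr1, transcripts with exon 70 were at 10.4, 15.2 and 16.2 TPM and the transcript without it at 4.66, 5.35 and 4.97 TPM. The exon was included in 69.0%, 74.0% and 76.5% (73.2% ± 3.81, SD, n = 3). The exon has 15 bases, so only a small part of the Ryr1 reads can tell the forms apart. The transcripts compared also differ by a few bases at other exon edges, and the share rests on little distinguishing sequence.

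**Figure D5:**
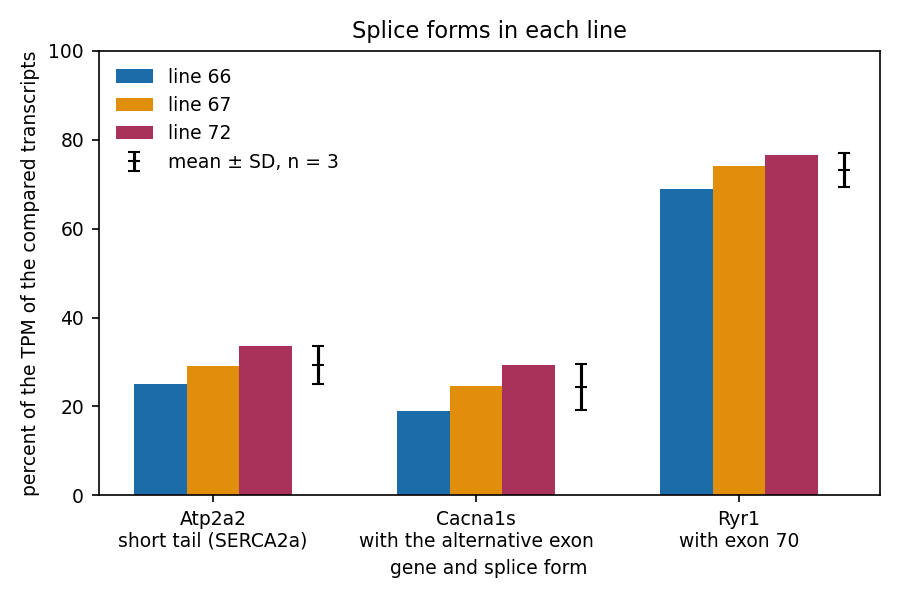
Percent of the TPM of the compared transcripts in the short-tail form of Atp2a2, in Cacna1s with exon 29 and in Ryr1 with exon 70, in lines 66, 67 and 72 (bars) with the mean and SD of the 3 lines. The short tail and exon 29 lay between 19.0% and 33.7% in all lines, exon 70 between 69.0% and 76.5%, and each share was lowest in line 66.

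For Atp2a1 the forms cannot be read in this way. The listed transcript without exon 22 is a short model of 5 exons, and no full-length form that lacks the exon is listed, so reads from the first exons could be assigned only to the transcript with it. The short model held 12.9, 25.2 and 33.1 TPM against 21.9, 33.0 and 46.8 TPM of the full-length transcript. Its share was 37.1%, 43.3% and 41.4% of TPM but 9.18%, 11.7% and 11.2% of counts.

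The shares were set beside those of other genes through the leading coding transcript, which is another measure than the share of a splice form. In 5 of the 10 genes at least 2 coding transcripts had 1 TPM or more and the gene passed 10 TPM. In these, the share of the leading coding transcript differed between lines by 16.4 percentage points in Casq2, 9.82 in Atp2a2, 6.22 in Atp2a1, 5.57 in Ryr1 and 2.46 in Stac3. A difference over 10 points was seen in 20.5% of 5151 such genes, with a median of 5.31 points, and 78.6% of these genes had a smaller difference than Atp2a2. The 1 of 5 genes over that limit was therefore close to the background share. In Casq2 it came from a second coding transcript at 1.03, 0.169 and 8.13 TPM in lines 66, 67 and 72, highest in line 72.

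Promoter sequence was examined because the 3 genes over 2-fold apart between lines differed in the same direction. RefSeq promoters (GRCm38.p6) were matched by symbol for 5 of the 10 genes: Atp2a1, Cacna1s, Casq1, Casq2 and Ryr1. The 250 bases before the start were searched on both strands for CANNTG, the E-box bound by MyoD-family factors, for its form CAGCTG, which is contained in CANNTG, and for the MEF2 motif. CANNTG was found in 4 of the 5 genes, all but Ryr1, and in 66.2% of 32851 promoters. CAGCTG was found in 3 of 5 (Atp2a1, Cacna1s and Casq1) and in 13.0% of promoters, and the MEF2 motif in 1 of 5 (Casq2) and in 2.92%. For Atp2a1, Cacna1s and Ryr1 the RefSeq start lies inside the gene as GENCODE places it, so the searched window includes the first bases of the gene. A match is a description of the letters only, and the binding of these factors was not measured here. The promoters of both calsequestrin genes are shown, Casq1 from chr1:172219896-172220145 on the minus strand and Casq2 from chr3:102086165-102086414 on the plus strand. Capitals mark the CANNTG matches and, in Casq2, the MEF2 match that begins 69 bases before the start.
Casq1 promoter: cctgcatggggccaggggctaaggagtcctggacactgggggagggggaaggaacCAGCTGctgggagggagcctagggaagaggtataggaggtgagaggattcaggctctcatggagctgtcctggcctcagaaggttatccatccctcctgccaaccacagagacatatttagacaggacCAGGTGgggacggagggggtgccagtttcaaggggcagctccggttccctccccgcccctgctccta
Casq2 promoter: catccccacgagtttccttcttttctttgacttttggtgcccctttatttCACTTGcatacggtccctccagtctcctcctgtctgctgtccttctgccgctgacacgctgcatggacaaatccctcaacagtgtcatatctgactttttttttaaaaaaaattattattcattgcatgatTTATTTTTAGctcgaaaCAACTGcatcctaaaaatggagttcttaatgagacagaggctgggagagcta

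The wider triad, the junction of transverse tubule and store, was described by a list of 28 partner genes. Of these, 19 passed 10 TPM, and 1 of the 19 was over 2-fold apart between lines, beside the 2.17% of all genes given above. This was Hrc, a histidine-rich calcium-binding protein of the store, named here after its values were seen. Hrc was at 9.95, 18.8 and 23.9 TPM in lines 66, 67 and 72, lowest in line 66 as both calsequestrins were. Line 66 was lowest and line 72 highest in 15 of all 28 partner genes, beside 29.4% of the 8428 genes above 10 TPM. The median log2 range of the 19 partner genes was 0.40, beside 0.38 for the 7 measured genes above 10 TPM and 0.23 over the 8428 genes. Among the most abundant of the list were Calm2, which encodes calmodulin, at 505, 526 and 568 TPM and Bin1, which encodes a protein that shapes transverse tubules, at 369.8, 493 and 558 TPM.

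Atp2a1 overlaps Rabep2 on the opposite strand, which was at 16.4, 17.2 and 16.0 TPM. Rabep2 differed little between lines, whereas Atp2a1 was 34.8, 58.2 and 79.9 TPM in lines 66, 67 and 72. The strand setting of the counting is not given here either, and the part of the overlap in the Atp2a1 values was not tested.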

How the data were processed

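RNA-seq libraries (TruSeq Stranded mRNA, poly-A enriched) of 3 myoblast lines were used as 1 condition. The submitters' processing notes name bcl2fastq 2.20, fastp 0.20, kallisto 0.46.1 and the GRCm39 build, and the annotation release and strand setting are not given in the sources used here. Per transcript, the values deposited were an estimated count without normalization and a TPM value scaled to 1000000 per library. No columns of fold changes or p-values were in the files.

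Transcripts were matched by identifier to GENCODE M21 (GRCm38, another build than that of the notes), which gave symbols and the coordinates stated. Of 121798 transcripts, 1112 had no match (between 0.493% and 0.535% of counts) and were left out. TPM and counts were summed per gene. All 48 transcripts of the 10 genes had the same length in that release. Depth was 73274315, 66972426 and 70272367 estimated counts in lines 66, 67 and 72. The detection limit was 3 counts, and this limit and the Poisson intervals cover counting error only.

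Values were compared as log2(TPM + 1) over 8428 genes, those whose mean reached 10 TPM. Such a fold change understates that of low genes. Paralogs were compared with exact two-sided sign-flip tests over the lines. Dispersion came from an intercept-only fit of edgeR on estimated counts rounded to whole numbers, and the method was tested on simulated data. The genes named are the 10 members, their paralogs and direct inhibitors, the 3 most abundant genes of each other list and those at or under 3 counts, the stage markers Pax7, Myod1, Myog and Myh3, and the 5 genes nearest to the line profile. Further genes were named from a count of 5 or fewer, because they overlap a member, or because they stood out, and these were chosen after their values were seen. Some genes that this rule selects are not reported here. The members and lists were chosen with earlier results of these data known. Alternatives were CPM, edgeR's TMM scaling, DESeq2 size factors, a pseudocount of 0.1, a minimum of 1 TPM, fold thresholds of 1.5 and 4, protein-coding transcripts, centring on the chromosome median and leaving out each line, with transcripts of at least 50% of the longest and counts for splice forms added after seeing the data. Tools were Python 3.11.15, pandas 2.3.3, scipy 1.17.1, R 4.3.3, edgeR 4.0.16 and DESeq2 1.42.0.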

Additional observations from a re-analysis of the deposited data

How the results depend on the processing

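The count of genes over 2-fold apart between lines (3 of 7) was 2 with CPM, TMM, DESeq2 size factors, protein-coding transcripts, transcripts of at least 50% of the longest and chromosome centring, where Casq1 was lost and Atp2a1 and Casq2 stayed. It was 0 with a fold threshold of 4, and between 0 and 3 when a line was left out, 0 without line 66 or line 72. It was 3 of 7 with a pseudocount of 0.1 (2.38% of all genes) and a threshold of 1.5 (9.03%), and 3 of 8 with a minimum of 1 TPM (4.05%). No paralog difference changed sign under the alternatives run. Leaving out a line could not change the sign, since all 3 lines had the same one for each pair. Of 218 alternative values of levels, ranges and shares, 176 stayed within 1 SD of the lines and 42 moved further, among them 8 of 10 ranges without line 66. Levels and shares with a line left out could not move by this rule, since dropping 1 of 3 values shifts their mean by less than 1 SD. A range also stays the same when the middle line is left out. These values are part of the 176 and are no check of the results. No paired analysis was possible because all 3 lines belong to 1 condition and no groups could be paired, apart from the paralogs compared within each line. Depth limits Ryr3 and Sln, at 52 counts or fewer per line.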

Other observations

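Outside the triad, the most abundant gene of calcium removal was highest in line 66. Atp2b1, a calcium pump of the plasma membrane, was at 338, 235 and 222 TPM in lines 66, 67 and 72, above Atp2a2 in each of them. Atp2b1 lies on chromosome 10, where the median gene in line 66 was 0.22 in log2 above the mean of the other lines. In a list of 19 genes of store refill and calcium removal, 8 had a mean of at least 10 TPM and 0 of these were over 2-fold apart between lines, beside 2.17% of all 8428 genes above that level, a count with no test. Stim2, a sensor of the calcium content of the reticulum, was at 62.6, 65.9 and 63.4 TPM.

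The most abundant calcium-binding proteins of the general endoplasmic reticulum were above both calsequestrins, though others of the list were not. Calr was at 865, 958 and 1043 TPM, Hsp90b1 at 814, 703 and 740 TPM and Canx at 612, 503 and 524 TPM in lines 66, 67 and 72. All 10 genes of this list passed 10 TPM, and 0 of 10 were over 2-fold apart between lines, which is near the 2.17% of all genes. Smooth muscle, neuron, fibroblast, and endothelium and blood markers were low in sum apart from Smtn (43.5, 37.7 and 50.3 TPM), with neuron markers at 1.71, 0.824 and 0.839 TPM and fibroblast markers at 0.512, 0.394 and 0.433 TPM. Of the heart list, Tnni3 was at 3.58, 2.42 and 1.71 TPM, and of the neuron list Syt1 at 1.27, 0.331 and 0.168 TPM, both highest in line 66. The 3 endothelium and blood markers summed to 0.481, 0.317 and 0.737 TPM.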
